A study of Homo sapiens with 14 samples.

Results

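The miR-148/miR-152 family consists of 3 mature microRNAs (miRNAs), miR-148a-3p, miR-148b-3p and miR-152-3p. They were followed in the RNA of extracellular vesicles (EVs), small membrane-bound particles shed by cells, in 14 libraries. The members were taken by name from the table of raw counts, where they were 3 of 2632 miRNAs and held 336 of 47091 counts (0.714%). They were chosen by their raw counts in all 14 libraries, across the 4 groups and by replicate number, which were already known, so their values are given as a description and carry no test.

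The cells were epicardial cells, which form the covering of the heart, made from the hES-2 line, which is an established line of human embryonic stem cells. Frozen pro-epicardial cells, the precursor stage, were thawed and plated for every group, so all groups come from 1 line. The NT group (3 libraries) had no additive for 8 days, and its labels name the source as untreated pro-epicardial cells. The SB group (4 libraries) had 6 µM SB-431542, an inhibitor of the TGF-β type I receptors, for 8 days, and is labelled as mature epicardial. The TGFb group (4 libraries) had 5 ng/ml TGF-β1 for 4 days followed by 4 days without it. The FGF group (3 libraries) had 10 ng/ml basic FGF for 8 days. Each group's medium was cleared of background EVs with a 100 kDa filter from day 4 on. Conditioned medium was taken on day 6 and again on day 8, each after 48 h on the cells. EVs were precipitated with polyethylene glycol, and the RNA therefore comes from everything in that pellet.

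A miRNA guides a silencing complex to messenger RNAs mainly through its seed, bases 2 to 8 from the 5′ end, so miRNAs with the same seed share most of their predicted targets. The miR-148/miR-152 family is best known for repressing DNMT1, the enzyme that copies DNA methylation after replication, and for roles in lipid metabolism and in differentiation. Its 3 members come from 3 separate genes, and the genes of miR-148b and miR-152 lie inside genes for ζ subunits of the COPI vesicle coat.

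The mature sequences are shown because the seed defines the family and because the members differ at few positions, which bears on how reads are assigned to them. Sequences are from RefSeq on GRCh38.p14, 5′ to 3′, with the seed in capitals.
miR-148a-3p: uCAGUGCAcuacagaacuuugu
miR-148b-3p: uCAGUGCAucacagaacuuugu
miR-152-3p: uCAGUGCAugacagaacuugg

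The seed CAGUGCA was carried by these 3 and no other of the 2349 miRNAs in the table that had a RefSeq sequence. Counting positions from 1 at the 5′ end, miR-148a-3p and miR-148b-3p differ by C9U and U10C and are identical at 20 of 22 positions. miR-152-3p differs from miR-148a-3p by C9U, U10G and U20G, and from miR-148b-3p by C10G and U20G. The members are 22, 22 and 21 bases long, so their counts were compared with no scaling for length. How the counting separated reads of such close sequences is not given in the sources used here, and the split between members is uncertain to that degree.

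miR-148a-3p lies at chr7:25949922-25949943 on the minus strand (GRCh38), in a hairpin that is outside any other gene of the GENCODE 29 annotation. miR-148b-3p lies at chr12:54337278-54337299 on the plus strand, in an intron of COPZ1 and in the same direction. miR-152-3p lies at chr17:48037174-48037194 on the minus strand, in an intron of COPZ2 and also in the same direction as its host.

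Depth limited every value. Library totals ran from 115 to 14862 counts, and 4 libraries (SB replicates 1 and 2, TGFb replicate 2 and FGF replicate 2) held fewer than 500 counts each. Only 47 miRNAs, with miR-148b-3p as the 1 family member among them, passed the expression filter of the group fit, out of 447 with any count. Of the 8 miRNAs listed for pluripotent stem cells 2 were seen, with 5 counts in all, and of the 4 listed for red cells and serum 2 were seen, with 9 counts, while miR-451a and miR-144-3p had 0. No miRNA that defines epicardium was used as a check of the labelled cell type. The labels do not say whether replicates came from separate cultures.

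miR-148b-3p had the highest mean share, the percentage of a library's counts, over all 14 libraries, although miR-148a-3p had the higher mean in TGFb and in FGF. It had 177 counts in 11 libraries and a mean share of 0.558% ± 0.580 (SD, n = 14), the 37th highest of the 447 miRNAs. miR-148a-3p had 118 counts in 13 libraries and a mean share of 0.428% ± 0.293 (SD, n = 14), the 46th. miR-152-3p had 41 counts in 9 libraries and a mean share of 0.135% ± 0.222 (SD, n = 14), the 85th. The means of miR-148b-3p and miR-148a-3p differed by less than either SD.

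**Figure D1:**
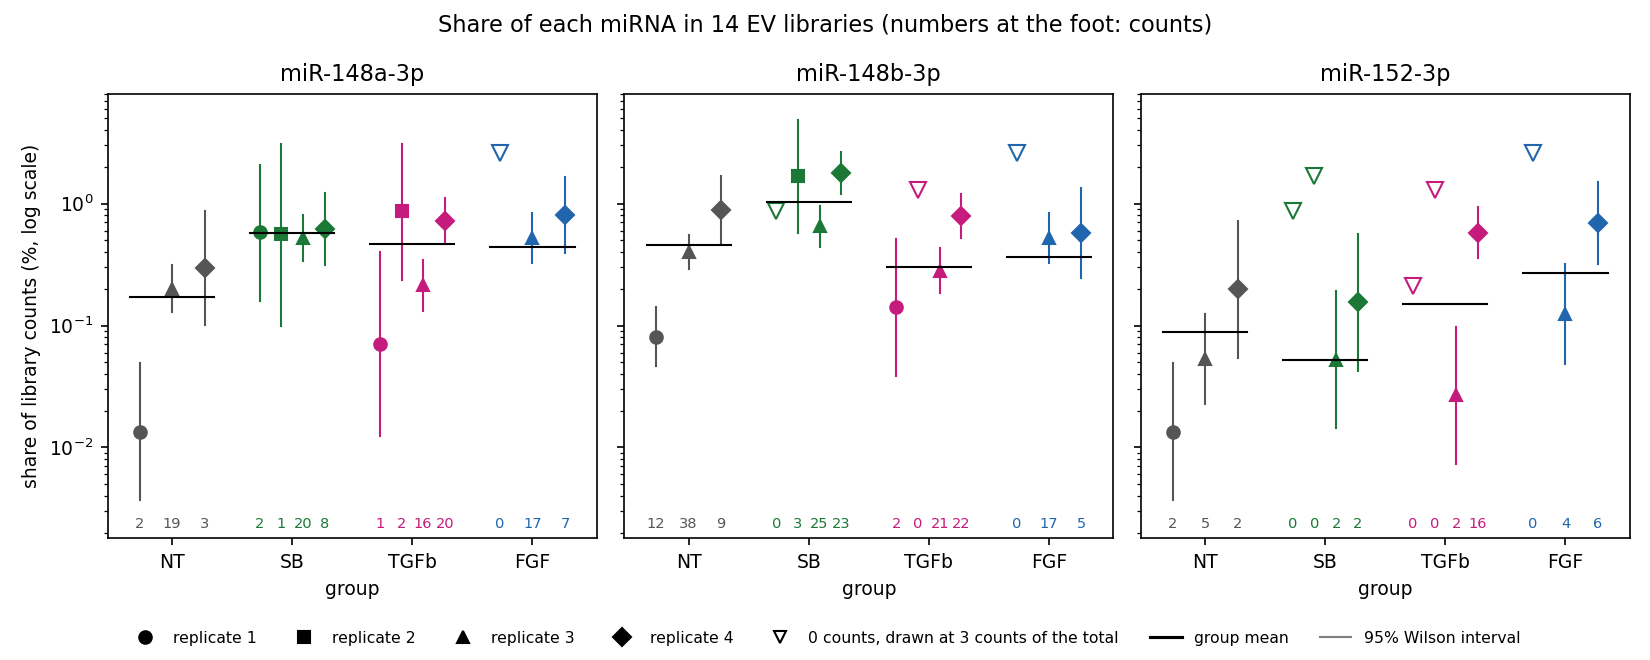
Share of each miRNA in the counts of each of 14 libraries (%, log scale), by group, with the number of counts at the foot. Filled symbols have 95% Wilson intervals, open triangles mark a count of 0 at 3 counts of the library's total, and black lines are group means; the 4 SB libraries lie between 0.523% and 0.622% for miR-148a-3p, above the 3 NT libraries, while the other panels overlap.

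miR-148a-3p was higher in SB than in NT in every library, and no other pair of a member and a comparison was free of overlap. In the NT libraries (replicates 1, 3 and 4) it had 2, 19 and 3 counts, which are shares of 0.0135%, 0.201% and 0.297%. In the SB libraries (replicates 1 to 4) it had 2, 1, 20 and 8 counts, or 0.580%, 0.559%, 0.523% and 0.622%. All 4 SB shares were above all 3 NT shares, and the mean was 0.571% ± 0.0415 (SD, n = 4) in SB against 0.170% ± 0.144 (SD, n = 3) in NT. Among the 122 miRNAs with a count in at least 7 libraries, 1.64% had SB shares that were all above NT and 6.56% all below. The same percentages above and below were 0% and 4.1% for TGFb over NT, and 4.92% and 5.74% for FGF over NT. For TGFb over SB they were 3.28% and 0.82%. Since every member, comparison and direction was looked at, nothing further is read from the lack of overlap.

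The close spacing of the SB values is narrower than the counts allow. The share in SB replicate 1 rests on 2 counts and has a 95% Wilson interval from 0.159% to 2.09%. That in SB replicate 2 rests on 1 count. The highest NT share, in NT replicate 4, rests on 3 of 1010 counts. Its interval runs from 0.101% to 0.870%, which reaches above every SB share, so counting error alone could undo the lack of overlap. The SB libraries with over 500 counts, replicates 3 and 4, are among those above every NT library, so they add nothing to the lack of overlap. Replicate numbers 1, 3 and 4 occur in both groups. miR-148a-3p was higher in SB than in NT at 3 of 3, which the lack of overlap already fixes. It was higher in TGFb than in NT at 3 of 3 and in FGF than in NT at 2 of 2 shared numbers. For miR-148b-3p the same counts were 2 of 3, 1 of 3 and 1 of 2. No such count was made over all miRNAs, and nothing further is read from them.

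In the TGFb libraries (replicates 1 to 4) miR-148a-3p had 1, 2, 16 and 20 counts, or 0.0705%, 0.866%, 0.214% and 0.722%. They overlapped both NT and SB, with a mean of 0.468% ± 0.385 (SD, n = 4). In the FGF libraries (replicates 2, 3 and 4) it had 0, 17 and 7 counts, or 0%, 0.525% and 0.806%, with a mean of 0.444% ± 0.409 (SD, n = 3). The 0 in FGF replicate 2 came from 115 counts in all and allows a share of up to 2.61%. In order of mean share, NT was lowest, followed by FGF, TGFb and SB, and no neighbouring means in that order differed by more than the larger of their SDs.

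miR-148a-3p did not pass the expression filter, so its fold changes come from the edgeR fit of all 447 miRNAs without a filter. Its log2 fold change over NT was 1.41 (SE 1.07) in SB, 1.35 (SE 1.06) in TGFb and 1.20 (SE 1.12) in FGF. The 3 comparisons share the NT libraries. Each estimate was little more than 1 SE from 0. Without NT replicate 1, the deepest library, they were 0.70, 0.66 and 0.63, and without NT replicate 3 they were 2.18, 2.12 and 2.17. Between TGFb and SB the log2 fold change was −0.06 (SE 0.97).

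miR-148b-3p spread widely within every group. Its NT libraries had 12, 38 and 9 counts, or 0.0807%, 0.402% and 0.891%. The SB libraries had 0, 3, 25 and 23 counts, or 0%, 1.68%, 0.653% and 1.79%. The highest SB shares were above every NT share, but SB replicate 1 had none among 345 counts, which allows up to 0.870%, so the groups overlapped.

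The TGFb libraries held 2, 0, 21 and 22 counts of miR-148b-3p, or 0.141%, 0%, 0.281% and 0.794%. The FGF libraries held 0, 17 and 5 counts, or 0%, 0.525% and 0.576%. Both groups lay inside the range of NT apart from their libraries at 0. The means were 0.458% ± 0.408 (SD, n = 3) in NT, 1.03% ± 0.855 (SD, n = 4) in SB, 0.304% ± 0.346 (SD, n = 4) in TGFb and 0.367% ± 0.319 (SD, n = 3) in FGF, each SD close to its mean.

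In the edgeR fit of the 47 filtered miRNAs, the log2 fold change of miR-148b-3p was 1.20 (SE 1.04) for SB over NT and −1.18 (SE 0.97) for TGFb over SB. It was 0.02 (SE 0.92) for TGFb over NT and −0.09 (SE 1.15) for FGF over NT. Single libraries moved these estimates: without SB replicate 4 they were 0.57 for SB over NT and −0.54 for TGFb over SB, and without TGFb replicate 4 they were −2.03 for TGFb over SB and −0.84 for TGFb over NT. Over the same 47 miRNAs the medians of these 4 comparisons were −0.04, −0.08, 0.09 and −0.00. In this fit 2.13% of miRNAs passed an adjusted p of 0.05 for SB over NT, 2.13% for FGF over NT and 0% for the other comparisons.

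miR-152-3p was the scarcest member. Its NT libraries had 2, 5 and 2 counts, or 0.0135%, 0.0528% and 0.198%, and its SB libraries had 0, 0, 2 and 2 counts, or 0%, 0%, 0.0523% and 0.156%. The TGFb libraries had 0, 0, 2 and 16 counts, or 0%, 0%, 0.0267% and 0.578%. The FGF libraries had 0, 4 and 6 counts, or 0%, 0.123% and 0.691%. The group ranges overlapped throughout, and in TGFb and FGF the share came mostly from replicate 4.

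The limits set by 3 counts put the absences of miR-152-3p in context. Its 0 in SB replicate 2 allows up to 1.68%, in TGFb replicate 2 up to 1.30% and in TGFb replicate 1 up to 0.212%. All but the last are above every share measured for it, so its absence from those libraries was not detectable as a difference at this depth. The last is still above every share in NT (at most 0.198%) and SB (at most 0.156%). It is below the shares in TGFb replicate 4 and FGF replicate 4. The mean shares were 0.0881% ± 0.0972 (SD, n = 3) in NT, 0.0519% ± 0.0733 (SD, n = 4) in SB, 0.151% ± 0.285 (SD, n = 4) in TGFb and 0.272% ± 0.369 (SD, n = 3) in FGF.

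The log2 fold change of miR-152-3p in the fit without a filter was −0.13 (SE 1.47) for SB over NT, 1.48 (SE 1.17) for TGFb over NT and 1.56 (SE 1.27) for FGF over NT. It was 1.61 (SE 1.22) for TGFb over SB. These values turned with 1 library: without TGFb replicate 4 the change was −1.15 (SE 1.46) over NT and −1.06 (SE 1.50) over SB. The change for FGF over NT was 0.59 (SE 1.46) without FGF replicate 4, 2.15 without FGF replicate 3 and 2.23 without NT replicate 4. Without NT replicate 1 it was 0.78 for TGFb over NT and −0.77 for SB over NT, and without SB replicate 4 it was −0.79 for SB over NT. At the replicate numbers shared with NT, miR-152-3p was lower in SB at 3 of 3 and higher in FGF at 2 of 2. In TGFb it was higher at 1 and lower at 2 of 3. The SB values rest on 0, 2 and 2 counts, and the 0 allows up to 0.870%. No such count was made over all miRNAs, and no difference is read from these orders.

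**Figure D2:**
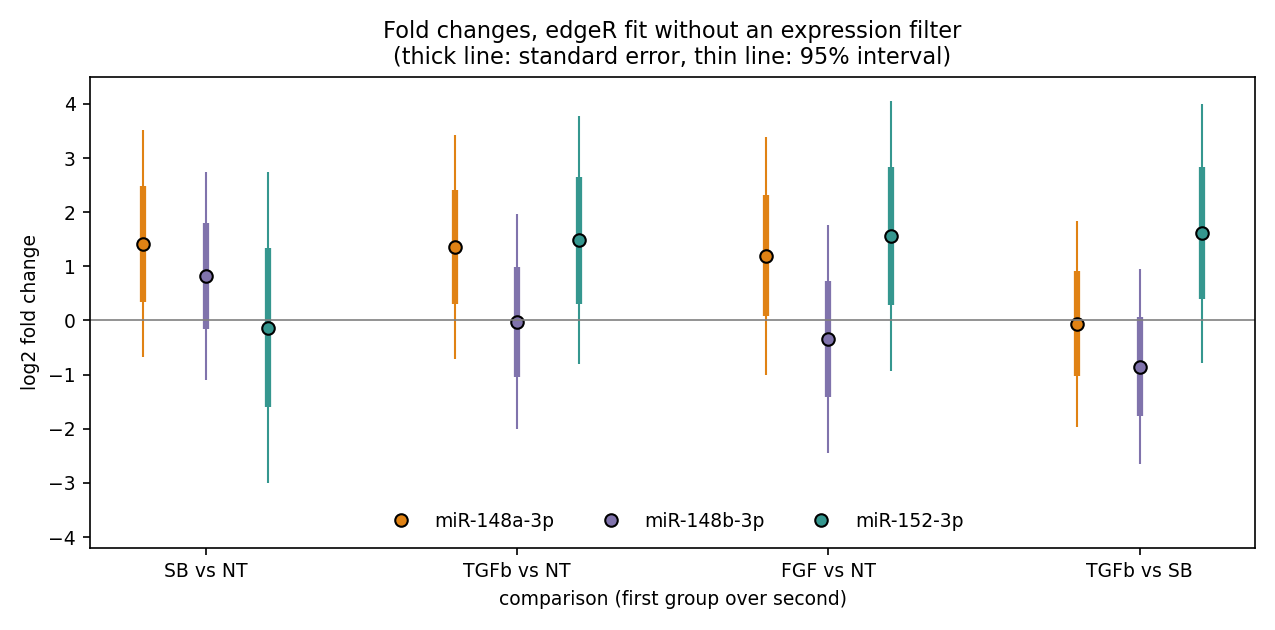
Log2 fold change of each member in 4 comparisons (first group over second), from the edgeR fit of 447 miRNAs without an expression filter. Points are estimates, thick lines span 1 SE and thin lines the 95% interval; every thin line crosses 0, and miR-148a-3p lies above 0 in the 3 comparisons with NT.

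The median log2 fold change of the 3 members in the fit without a filter was 0.82 for SB over NT, 1.35 for TGFb over NT, 1.20 for FGF over NT and −0.06 for TGFb over SB. The median of the 122 miRNAs with a count in at least 7 libraries was −0.28, −0.02, −0.30 and 0.16 in the same order. In that fit the share of all 447 miRNAs past an adjusted p of 0.05 was 0.224% for FGF over NT and 0% for the other comparisons. Scaling with RLE factors in place of TMM shifted the median of all miRNAs by 0.53 for SB over NT, 0.43 for FGF over NT and 0.12 for TGFb over NT.

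The 3 members together made up 0.716% ± 0.641 (SD, n = 3) of the NT libraries, 1.65% ± 0.914 (SD, n = 4) of the SB libraries, 0.923% ± 0.825 (SD, n = 4) of the TGFb libraries and 1.08% ± 1.04 (SD, n = 3) of the FGF libraries. By library the family share was 0.108%, 0.655% and 1.39% in NT and 0.580%, 2.23%, 1.23% and 2.57% in SB. It was 0.212%, 0.866%, 0.522% and 2.09% in TGFb and 0%, 1.17% and 2.07% in FGF. These means rest on few libraries: without replicate 4 they were 0.381% in NT, 0.533% in TGFb and 0.586% in FGF, without FGF replicate 2 the FGF mean was 1.62%, and with the counts of NT pooled its share was 0.363%. All 4 groups overlapped, and the group means lay within 1 SD of their neighbours in order of level (NT, TGFb, FGF, SB).

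The make-up of the family, each member as a percentage of the 336 family counts, does not depend on the library total. Over all libraries miR-148b-3p made up 52.7% (95% Wilson interval 47.3 to 58.0), miR-148a-3p 35.1% and miR-152-3p 12.2%. The interval covers counting error only and not the spread between libraries, where the part of miR-148b-3p ran from 0% to 75.0%. With the counts of a group pooled, the part of miR-148b-3p was 64.1% in NT, 59.3% in SB, 44.1% in TGFb and 39.3% in FGF. Over single libraries with a family count the means were 66.9% ± 7.21 (SD, n = 3) in NT, 49.5% ± 34.3 (SD, n = 4) in SB, 39.6% ± 28.9 (SD, n = 4) in TGFb and 36.3% ± 12.0 (SD, n = 2) in FGF.

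In NT miR-148b-3p was the leading member in every library, with 75.0%, 61.3% and 64.3% of the family counts. In SB it held 0%, 75.0%, 53.2% and 69.7%, and in TGFb 66.7%, 0%, 53.8% and 37.9%. In FGF replicates 3 and 4 it held 44.7% and 27.8%, both below every NT library, while FGF replicate 2 had no family count. The Wilson intervals of these FGF values ran from 30.1% to 60.3% and from 12.5% to 50.9%. They overlapped those of NT replicates 1 (50.5% to 89.8%), 3 (48.8% to 72.4%) and 4 (38.8% to 83.7%). Counting error alone could therefore undo this order, and no difference is read from it. The values of 0 rest on libraries with 2 family counts each. In the authors' deposited table of adjusted values the pooled part of miR-148b-3p was 62.3% in NT but 38.5% in SB. miR-152-3p made up 27.6% of the family in TGFb replicate 4 and 33.3% in FGF replicate 4, and at most 14.3% elsewhere.

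**Figure D3:**
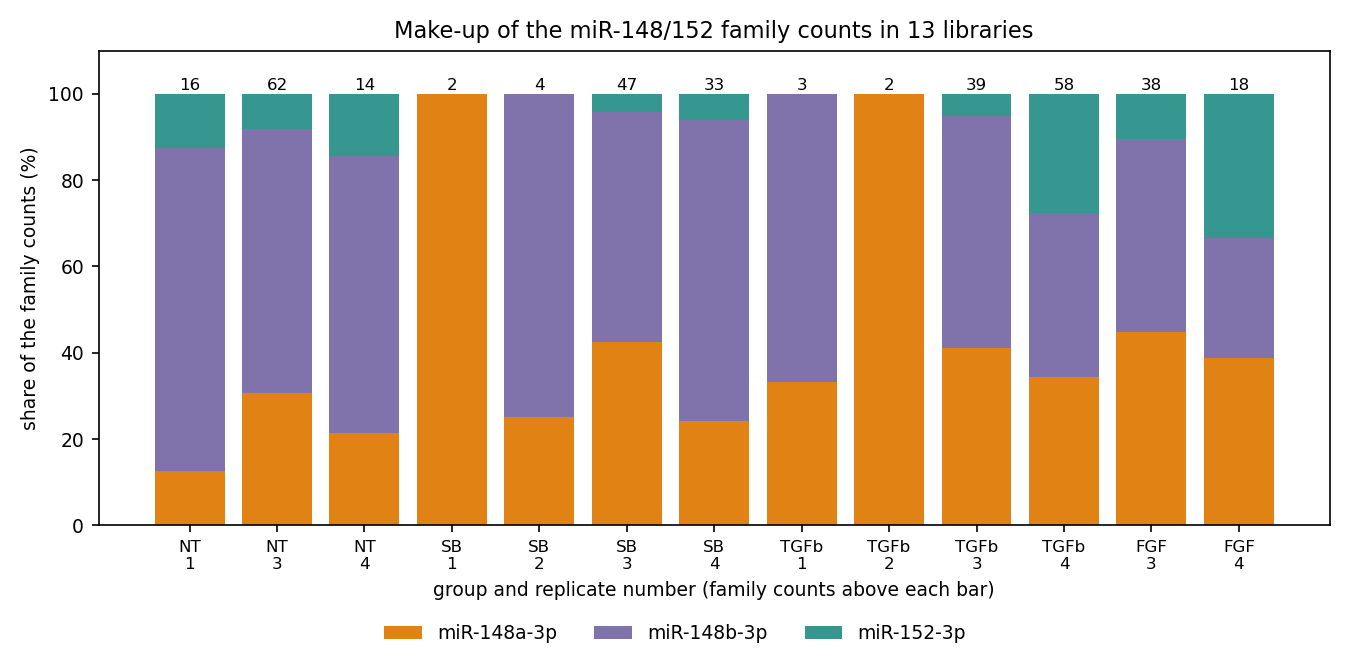
Each member as a percentage of the family counts in the 13 libraries with at least 1 family count (FGF replicate 2 had none), with the number of family counts above each bar. miR-148b-3p forms the largest part in all 3 NT libraries, and bars of 2 to 4 counts swing between the extremes.

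Shares of the members were also set out by replicate number, which the labels give as 1 to 4. In the libraries of replicate 4 the family share was 1.39% to 2.57% and in those of replicate 3 it was 0.522% to 1.23%, with no overlap. By member, the ranges of miR-148a-3p and miR-148b-3p overlapped and those of miR-152-3p did not, with 2 to 5 counts of it per library in replicate 3. How many of all miRNAs were free of overlap in this way was not counted, so no difference is read from these ranges. Replicate 4 was above replicate 3 for each of the 3 members in each of the 4 groups, 12 of 12 pairs. Of the 122 miRNAs with a count in at least 7 libraries, 24.6% were above in all 4 groups, and since the members were chosen with these values known, nothing further is read from the count.

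For miR-152-3p the shares were 0.156% to 0.691% in replicate 4 and 0.0267% to 0.123% in replicate 3. The 6 libraries of replicates 1 and 2 held 2 counts of it in all, both in NT replicate 1. Libraries of replicate 2 were shallow, with 115 to 231 counts, and gave family shares from 0% to 2.23%. Those of replicate 1 gave 0.108% to 0.580%.

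Depth and the liver marker differed between replicates 3 and 4, and the other marker lists overlapped. Totals were 3241 to 9462 counts in replicate 3 and 868 to 2770 in replicate 4. miR-122-5p, the liver miRNA, ranged from 0% to 0.0309% in replicate 3 and from 0.144% to 0.778% in replicate 4. By group, its share was 0% to 0.396% in NT and 0% to 3.91% in SB. The endothelial pair miR-126-3p and miR-126-5p summed to 0.0269% to 0.0990% in NT and 0% to 3.91% in SB. For miR-122-5p and for this pair, the top of the SB range was 7 of 179 counts in SB replicate 2. Summed over their lists, the endothelial miRNAs ranged from 0.0535% to 0.802% in replicate 3 and from 0% to 1.04% in replicate 4. The 4 listed striated muscle miRNAs, 3 of them seen, ranged from 0.0134% to 0.209% in replicate 3 and from 0% to 0.792% in replicate 4. By group they ranged from 0.0202% to 0.792% in NT and from 0% to 0.870% in SB. The part of depth and of these markers in the levels of the family was not tested.

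**Figure D4:**
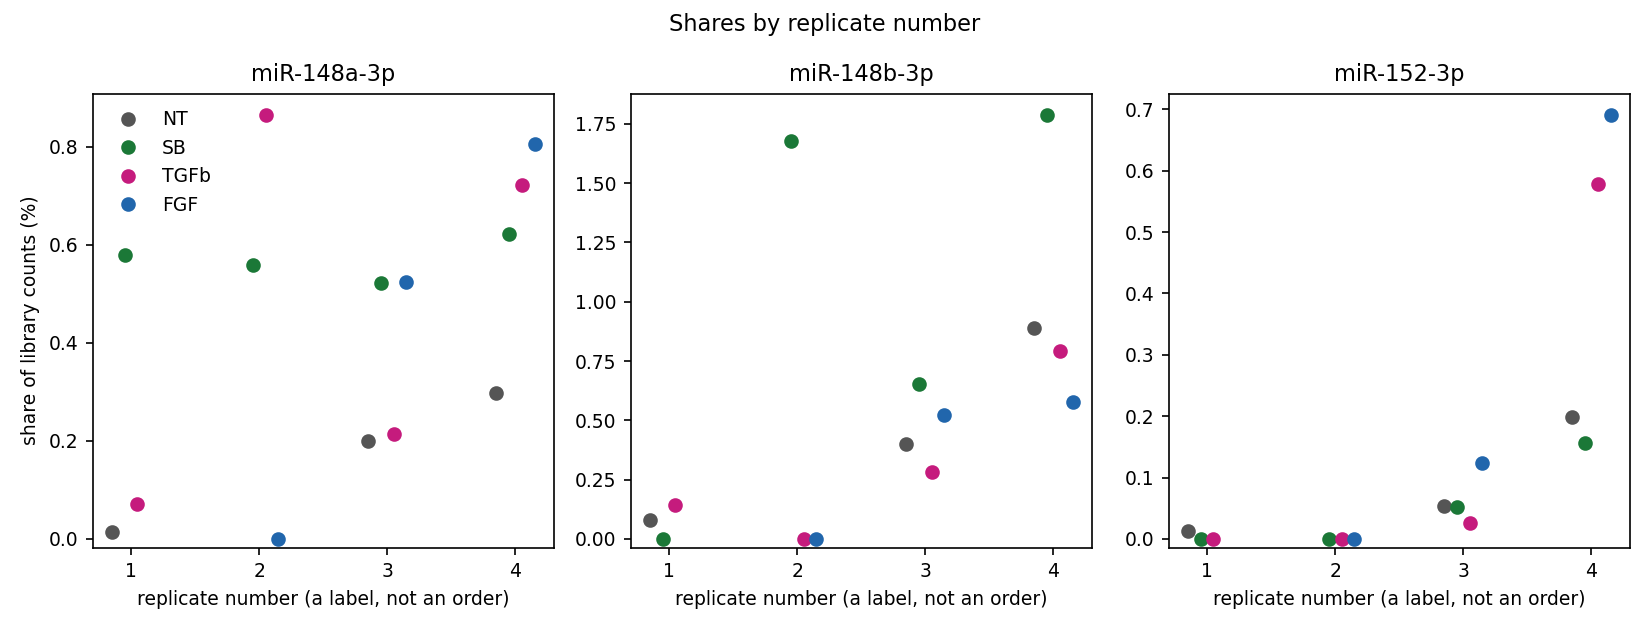
Share of each member in library counts (%) by the replicate number of the labels, with groups in colours. The numbers are labels with no order; in every group and panel the point of replicate 4 lies above that of replicate 3.

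The authors' adjusted table, whose making no header or label states, changes the members unequally. In the authors' deposited table the total of miR-148a-3p went from 118 to 117, that of miR-148b-3p from 177 to 154 and that of miR-152-3p from 41 to 27. No 0 was altered. In NT replicate 1 all members were raised, miR-148a-3p from 2 to 17, miR-148b-3p from 12 to 54 and miR-152-3p from 2 to 8. Values of replicate 4 were lowered, such as miR-148b-3p in SB from 23 to 7 and miR-152-3p in TGFb from 16 to 6.

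After this adjustment miR-148a-3p in SB (0.362% to 1.30%) still lay above NT (0.113% to 0.255%). Of the 122 miRNAs, 2.46% did so and 6.56% lay wholly below. Replicate 4 was above replicate 3 in 9 of 12 pairs of member and group. Only miR-152-3p was above in all 4 groups, with miR-148b-3p above in 3 and miR-148a-3p in 2. Of the 122 miRNAs, 13.1% were above in all 4 groups. The log2 fold change of miR-148b-3p for SB over NT was −0.14 (SE 1.11) in the adjusted values, with limma, against 1.20 in the raw counts.

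The authors' deposited table also gives a mean CPM per group (each value divided by its library's total and scaled up), which matches the adjusted values. That of miR-148a-3p was 1996 in NT, 6976 in SB, 4664 in TGFb and 3597 in FGF. That of miR-148b-3p was 3870, 6855, 2491 and 2990 in the same order. That of miR-152-3p was 683, 290.4, 699.9 and 1585. SB was thus highest for miR-148a-3p and miR-148b-3p and lowest for miR-152-3p. The order of SB against NT was that of the mean raw shares. These CPM restate the adjusted shares and are no separate measure.

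**Figure D5:**
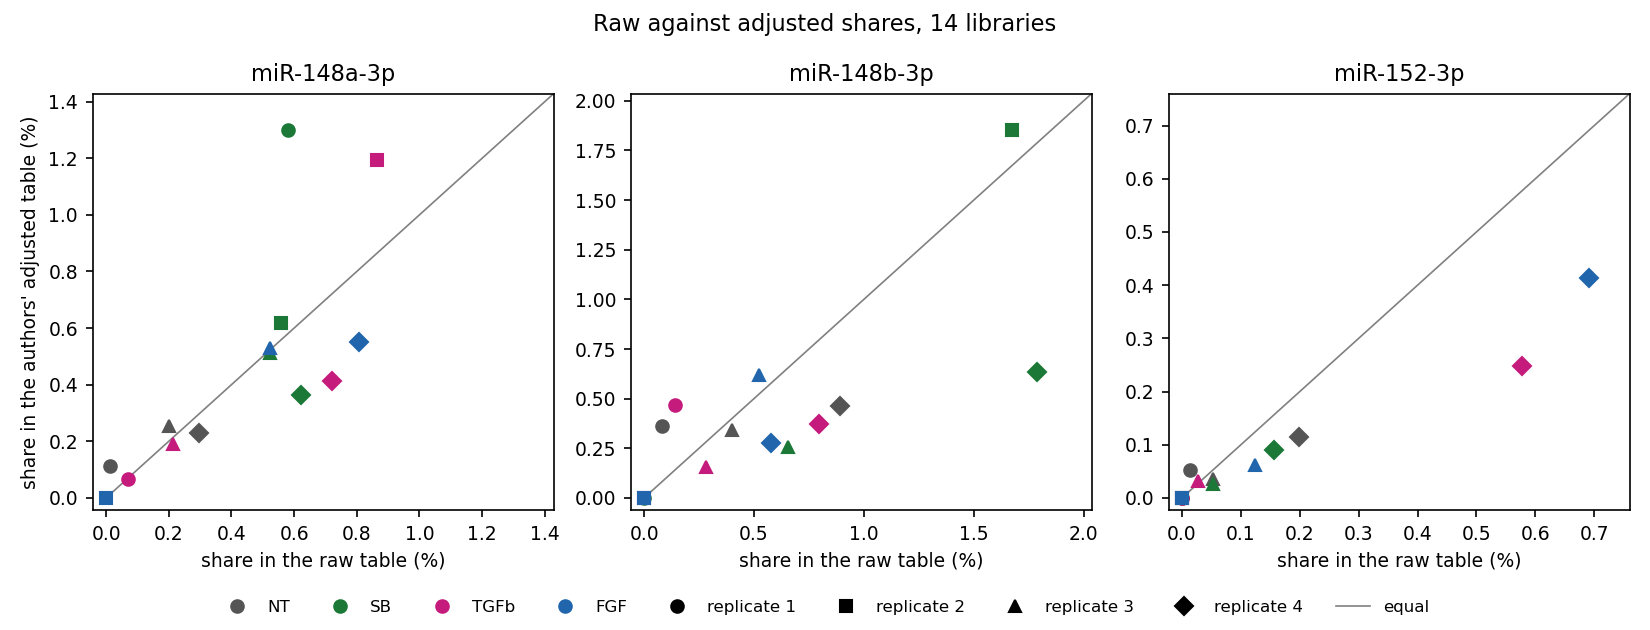
Share of each member in the raw table (x axis, %) and in the authors' adjusted table (y axis, %) in 14 libraries, coloured by group and shaped by replicate number. The grey line marks equal values; replicates 4 (diamonds) lie below it for all 3 members, and NT replicate 1 lies above it.

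The opposite arms of the 3 hairpins gave no counts. Each hairpin yields a 3p and a 5p arm, and as a rule the arm that is not loaded into the silencing complex is degraded. The hairpins of miR-148a and miR-148b are shown with the 3p arm in capitals because only that arm was counted.
MIR148A: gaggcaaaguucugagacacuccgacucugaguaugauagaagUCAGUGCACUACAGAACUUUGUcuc
MIR148B: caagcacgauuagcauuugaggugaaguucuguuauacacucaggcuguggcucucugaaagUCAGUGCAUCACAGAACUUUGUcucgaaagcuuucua

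miR-148a-5p, miR-148b-5p and miR-152-5p had 0 counts in all 14 libraries, against 118, 177 and 41 for the 3p arms. A 0 among 47091 counts allows a share of up to 0.00637%. The hairpins lie at chr7:25949919-25949986 and chr12:54337216-54337314.

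The miR-130/miR-301 family carries 6 of the 7 seed bases of the miR-148/miR-152 family, shifted by 1 position. Its most counted member in these libraries is shown with its own seed in capitals.
miR-454-3p: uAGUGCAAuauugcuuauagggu

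AGUGCA lies at bases 2 to 7 of miR-454-3p and at bases 3 to 8 of the miR-148/miR-152 miRNAs. Among the 2349 miRNAs of the table with a RefSeq sequence, which leave out miR-130a-3p, it stood at bases 2 to 7 of 6, of which 3 had a count. The 5 listed members of miR-130/miR-301 had 58 counts together, 38 of them of miR-454-3p, 15 of miR-130a-3p, 4 of miR-301a-3p and 1 of miR-130b-3p, and miR-301b-3p had 0. None passed the filter. In the edgeR fit without a filter 0 of 4 passed an adjusted p of 0.05 in any of the 4 comparisons, and 1 of the 16 unadjusted p-values was under 0.05, that of miR-301a-3p for TGFb over NT. Over all 447 miRNAs the share with an unadjusted p under 0.05 was 6.94% for SB over NT, 4.03% for TGFb over NT, 7.38% for FGF over NT and 3.8% for TGFb over SB, so 1 of 16 is near the background.

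The mean share of miR-454-3p was highest in NT, but this rested on NT replicate 4. That library held 6 counts, a share of 0.594%, while the deeper NT replicates 1 and 3 held 4 and 7 counts. Shares ran from 0.0269% to 0.594% in NT and from 0% to 0.157% in SB, so they overlapped. By group the mean share of miR-454-3p was 0.232% in NT (17 counts) and 0.0781% in SB (8 counts), 0.0585% in TGFb (9 counts) and 0.0693% in FGF (4 counts). Its log2 fold change over NT was −0.61 (SE 1.18) in SB, −0.81 (SE 1.14) in TGFb and −1.19 (SE 1.33) in FGF, each within 1 SE of 0. For miR-130a-3p the same values were 1.73 (SE 1.31), 1.70 (SE 1.27) and 2.33 (SE 1.40), with 2 counts in NT.

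The miR-29 family, also known for repressing DNA methyltransferases (DNMT3A and DNMT3B), had 50 counts. miR-29a-3p accounted for 47 of them, miR-29c-3p for 2 and miR-29b-3p for 1. The mean share of miR-29a-3p was 0.265% in NT, 0.376% in SB, 0.238% in TGFb and 0.0974% in FGF. Its log2 fold change over NT was 0.26 (SE 1.21) in SB, 0.13 (SE 1.15) in TGFb and −1.16 (SE 1.41) in FGF. In the edgeR fit without a filter 0 of 3 members passed an adjusted p of 0.05 in the 4 comparisons, and 0 of the 12 unadjusted p-values were under 0.05, against the 3.8% to 7.38% of all 447 miRNAs given above.

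Among the 46 other filtered miRNAs, the log2 CPM of miR-320c was most like that of miR-148b-3p over the 14 libraries, with a Pearson r of 0.814 and a Spearman rho of 0.726. miR-183-5p followed with 0.767 and 0.690, and miR-26a-5p with 0.646 and 0.532. The miRNAs compared share the libraries and their depth. In the 10 libraries of at least 500 counts r was 0.515 for miR-320c, 0.343 for miR-183-5p and 0.672 for miR-26a-5p, and the highest r there were those of miR-16-5p (0.780) and miR-1290 (0.725), so the miRNAs most like it depended on the shallow libraries.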

How the data were processed

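The kits named per the labels' protocols are miRCURY for precipitating EVs, miRNeasy Micro for RNA and QIAseq miRNA for the libraries. GRCh38 is the build per the submitters' processing notes; the aligner, the miRNA annotation and the use of molecular identifiers are not given in the sources used here. The authors' deposited raw table holds whole-number counts with no normalization. The authors' deposited adjusted table is treated as a score, since its whole numbers depart from the raw ones; 2 of its lines that name no miRNA were left out. The authors' deposited mean CPM of each group is printed as given, and 14 CPM columns of single libraries were left aside.

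Groups came from the labels: NT 3, SB 4, TGFb 4 and FGF 3 libraries. Where nothing says that replicates are separate cultures, p-values measure only the spread between these libraries. All 18 pairs of replicates within groups differed beyond sampling noise (chi-square test with 2000 resamples, p of 0.0005 each, the smallest possible), so none were merged for the fits. Values from pooled counts are descriptions only. Counts were fitted with edgeR 4.0.16 in R 4.3.3 (robust quasi-likelihood, TMM, group means, all 14 libraries) after filterByExpr with a minimum count of 10, with Benjamini-Hochberg adjustment over all miRNAs tested and a threshold of 0.05. An SE is the absolute log2 fold change over the square root of F. The filter dropped miR-148a-3p and miR-152-3p, and the fit without a filter was used for them, a choice made after seeing the data. The edgeR fit with the filter was run on simulated data for SB over NT only, and the fit without a filter was not. Single shares carry 95% Wilson intervals. Where a library had 0, the limit is 3 counts over its total, and both cover counting error only.

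The members and the lists were chosen with earlier results of these data known, so members carry no p. Named miRNAs were the members, their opposite arms, the miR-130/miR-301, miR-29 and marker lists, and the 3 miRNAs most like the most counted tested member in log2 CPM (prior count 2). Alternatives were RLE factors, library size only, DESeq2 1.42.0, no filter, libraries of at least 500 counts, a replicate block, limma 3.58.1 on the adjusted values, and each library left out.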

Additional observations from a re-analysis of the deposited data

Results flagged for a closer look

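The share of miR-152-3p in TGFb replicate 4 (0.578%, 16 of 2770 counts) stood far from the other 3 TGFb libraries, which had 0%, 0% and 0.0267%. Its gap to the nearest of them was 0.954 of the range of the group, and it is given for that gap, as a description of values already known when the members were chosen. The gap takes each 0 as it stands, while the 0 of 231 counts in TGFb replicate 2 allows a share of up to 1.30%, above that of replicate 4. The 0 in TGFb replicate 1 allows up to 0.212%, which is below it. In the authors' deposited adjusted table the value of this library is 6, a share of 0.248%.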

How the results depend on the processing

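Of 244 log2 fold changes of the members under alternative settings, 239 stayed within 1 SD of the value reported (the spread of the member's log2 CPM within groups), 5 moved further and 27 changed sign. The 5 were all of miR-152-3p: in the adjusted table −0.29 for TGFb over NT, 0.29 for FGF over NT and 0.28 for TGFb over SB, and without TGFb replicate 4 −1.15 for TGFb over NT and −1.06 for TGFb over SB. With any 1 library left out these 2 comparisons ranged from −1.15 to 1.85 and from −1.06 to 2.11. The cause was not tested. The SD used as the limit was wide: 1.05 log2 units for miR-148a-3p, 1.78 for miR-148b-3p and 1.12 for miR-152-3p. A change of miR-148b-3p for SB over NT from 1.20 to −0.14, in the adjusted table, counted as within it. Staying within this SD is therefore no measure of stability. The log2 fold changes of miR-148a-3p over NT were above 0 under every alternative run, from 0.70 to 2.18 in SB, 0.56 to 2.12 in TGFb and 0.16 to 2.17 in FGF. miR-152-3p for SB over NT changed sign with RLE factors (0.31), library size only (0.26) and DESeq2 (0.35). The number of miRNAs past the threshold was 1, 0, 1 and 0 for SB, TGFb and FGF over NT and TGFb over SB. For SB over NT it was 3 with DESeq2 and 0 with RLE factors, library size only, no filter, the adjusted table or libraries of at least 500 counts. For FGF over NT it was 0 with RLE factors, library size only, the adjusted table or libraries of at least 500 counts. Leaving out a library gave 0 to 7, 0 to 1, 0 to 9 and 0 to 2, the highest each without NT replicate 4. Libraries of the same replicate number correlated in their deviations from group means at 0.307 on average over 18 pairs (0.00574 to 0.628), over 0.1 in 15 pairs, and 9 of 14 libraries correlated best with their own number, a hint from the data and not from the design, so samples were not treated as paired by number. With a replicate block, miR-148b-3p had log2 fold changes of 1.00, −0.05, −0.37 and −1.05, miR-148a-3p 1.57, 1.40, 0.96 and −0.17, and miR-152-3p −0.62, 0.59, 0.72 and 1.21, in the order above, and 1, 0, 2 and 3 miRNAs passed. Depth limits the shallow libraries most: a 0 in FGF replicate 2 allows a share of up to 2.61%.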
